A study of Rattus norvegicus with 90 samples.

Results

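A group of 200 rat transcripts with similar abundance in liver, kidney, and heart was followed through an acute thioacetamide exposure. The members were chosen among 40071 transcripts from vehicle-treated rats only. The mean TPM (the deposited length-corrected abundance, which has the same total in every library) was taken per organ over the vehicle samples of both times, and a transcript was kept when its highest organ mean was at most 1.5 times its lowest. Of the 1451 transcripts that passed, the 200 with the highest lowest-organ mean are the members. The 1108 other transcripts at or above the lowest member's level, all with a larger ratio among organs, serve below as the uneven transcripts. They share the lower limit on the level with the members but were not matched to them in level or length. Male Sprague-Dawley rats received 1 intraperitoneal injection of vehicle (saline, 3 ml/kg), a low dose (25 mg/kg), or a high dose (100 mg/kg) of thioacetamide, and liver, kidney, and heart were collected after 8 or 24 h, with 5 samples in each of the 18 groups and 90 in all. Thioacetamide is a hepatotoxicant that liver enzymes convert to reactive metabolites, and the rats of all groups carried vascular catheters. The rats of the 8 h groups were dosed in the morning and had no food from then on. Those of the 24 h groups were dosed in the late afternoon and had food until the last 8 h. Rats of both times were thus without food for the last 8 h and were collected in the late afternoon. Time after exposure cannot be told apart from feeding earlier after the dose and time of dosing. The organs came from the same rats, but no label says which organs belong to 1 rat. Library numbers up to 90 mostly recur at a step of 30 among the organs, without a stated meaning, and the organs were treated as unpaired.

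Transcripts present at similar levels in unrelated tissues usually belong to the basic machinery that most cells run, such as protein synthesis and turnover, energy metabolism, and the cytoskeleton. Such transcripts are commonly used as references against which other transcripts are measured, and a reference is useful only if the treatment leaves it at the same level. The reference tables used here list no gene for these Ensembl identifiers, so members are given by identifier, and neither their roles nor their sequences are described. In tissue, fewer cells of a type and less RNA per cell cannot be told apart.

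Estimated counts summed to between 16332800 and 36303200 per library. The liver libraries MS-1, labelled vehicle at 24 h, and MS-9, labelled low dose at 8 h, differed by less than the sampling noise. Their estimated counts were within 1 count of each other for 99.96% of 15797 transcripts, and for 199 of the 200 members. The values do not show which of the 2 labels is right. MS-1 was left out, as in the rule that chose the members, MS-9 was kept under its label, and values with MS-1 are given where they differ. Without MS-9 instead, the liver at 8 h after the low dose gave 11 called members, the same number as with it. Liver libraries also differed in the share of TPM on targets shorter than 200 bases, which was between 22.9% and 33.2% in MS-14, MS-15, MS-16, MS-18, MS-19, and MS-21, and between 5.62% and 16.4% in the others. These 6 libraries had the lowest summed TPM of the members among the liver libraries, between 14922 and 19399.

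In vehicle samples, the lowest-organ mean of the members ran from 25.7 to 1411 TPM with a median of 49.1 TPM, and 48 members had more than 100 TPM in every organ. The ratio of the highest to the lowest organ mean had a median of 1.34, against 2.37 in the uneven transcripts. Since these values chose the members, they are a description. The highest organ was the kidney for 124 members, the heart for 41, and the liver for 35. The lowest was the heart for 83, the kidney for 15, and the liver for the rest. The most abundant member was ENSRNOT00000001383, with means of 1411 TPM for liver, 1716 TPM for kidney, and 1672 TPM for heart. It was followed by ENSRNOT00000022897, ENSRNOT00000046519, ENSRNOT00000049535, and ENSRNOT00000083951, whose lowest-organ means were between 519 and 875 TPM.

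The members just inside the limit on the level were ENSRNOT00000046399 and ENSRNOT00000029177, both with a lowest-organ mean of 25.7 TPM. The first transcripts outside, ENSRNOT00000006884 and ENSRNOT00000075565, both had 25.5 TPM. At the limit on the ratio, ENSRNOT00000009152 and ENSRNOT00000081747 were inside with 1.499 and 1.49997, and ENSRNOT00000015618 and ENSRNOT00000025980 were outside with 1.50006 and 1.501. Members had a median length of 1254.5 bases, from 61 to 5360, and the uneven transcripts had a median of 1095 bases. Under 200 bases were 2 members and 58 of the uneven transcripts. Estimated counts were whole in every sample, within 0.005 of a count, for 87 members (43.5%) and for 44.1% of the uneven transcripts. For 93 members the estimate was not whole in more than 50% of the samples, which happens where reads are shared with another target, so the level of these members depends on how the reads were divided. ENSRNOT00000006754 and ENSRNOT00000044551 had identical ratios among organs in every treated condition. Their coefficients of variation were also identical in every organ, and each counts as a member.

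Which transcripts were even among organs depended on the scale. When counts per kilobase were scaled by TMM (trimmed mean of M-values, which sets the typical transcript equal between libraries) over the samples of all organs, 39 of the 200 members had a ratio of at most 1.5 in vehicle samples, and the liver was the highest organ for 200. The members were chosen for evenness on TPM, so this count does not compare the scales. By the same rule, 3352 transcripts passed the ratio on the TMM scale, against 1451 on TPM. Of the 200 chosen there, 23 were members. With TPM rescaled over transcripts of at least 200 bases, 176 of the 200 stayed within 1.5. The choice also varied between the vehicle samples themselves. With MS-1 among them, 1754 transcripts passed the ratio, and 155 of the 200 then chosen were members. At 8 h alone, 180 members were within 1.5, and at 24 h alone, 155. A list made by the same rule from the 8 h vehicle samples had 122 of its 200 transcripts within 1.5 at 24 h, and a list from the 24 h samples had 154 at 8 h.

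The level of the members was first compared between the vehicle groups of 24 and 8 h, a contrast the rule did not use. A transcript was called when its adjusted p-value (edgeR's quasi-likelihood test with Benjamini-Hochberg adjustment over all transcripts tested) was at most 0.01 and its natural-log fold change at least 0.60 either way, which is 0.87 on the log2 scale. No member was called in any organ, and of all transcripts tested 0.0% were called for liver, 0.0% for kidney, and 0.0% for heart. At an unadjusted p-value under 0.05 there were 16 members for liver, 2 for kidney, and 17 for heart, and DESeq2 also called 0 in each. Counts at this unadjusted limit, here and below, are given without a share over all transcripts and are no result about the members. Because a missed threshold does not show stability, the 95% interval of each fold change was also compared with the limits of 0.60 on either side. It lay inside them for 187 members for liver, 190 for kidney, and 195 for heart. Over all transcripts the shares were 61.2%, 67.8%, and 79.9%, and over the uneven transcripts 90.7%, 92.6%, and 95.1%.

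After thioacetamide, the summed TPM of the members was higher in the liver at 24 h. This is a description, since the vehicle samples of the contrast chose the members. In vehicle livers at 24 h the sum was 16573, 16731, 21671, and 24344. It was 33338, 33963, 34909, 34984, and 35006 after the low dose and 31822, 37066, 38109, 40275, and 42055 after the high dose. Every treated library lay above every vehicle library, including MS-1 with 30246. The mean was 19830.0 ± 3829 (SD, n = 4) with vehicle, 34440.1 ± 755 (n = 5) with the low dose, and 37866 ± 3892 (n = 5) with the high dose. In the same groups the share of TPM on targets under 200 bases was 10.6 to 28.9%, 5.95 to 8.90%, and 5.65 to 16.4%, and the 10 most abundant targets took 19.5 to 27.97%, 17.3 to 18.6%, and 14.9 to 16.99% of the TPM. The part of these shares in the sum was not tested. At 8 h the liver groups overlapped, from 14922 to 25926 with vehicle and from 17066 to 27460.5 with the high dose. In the kidney and the heart the sums of the treated and vehicle groups overlapped at both times, except that the low dose in the heart at 8 h (23102 to 24211) lay above vehicle (19347 to 23072).

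**Figure D1:**
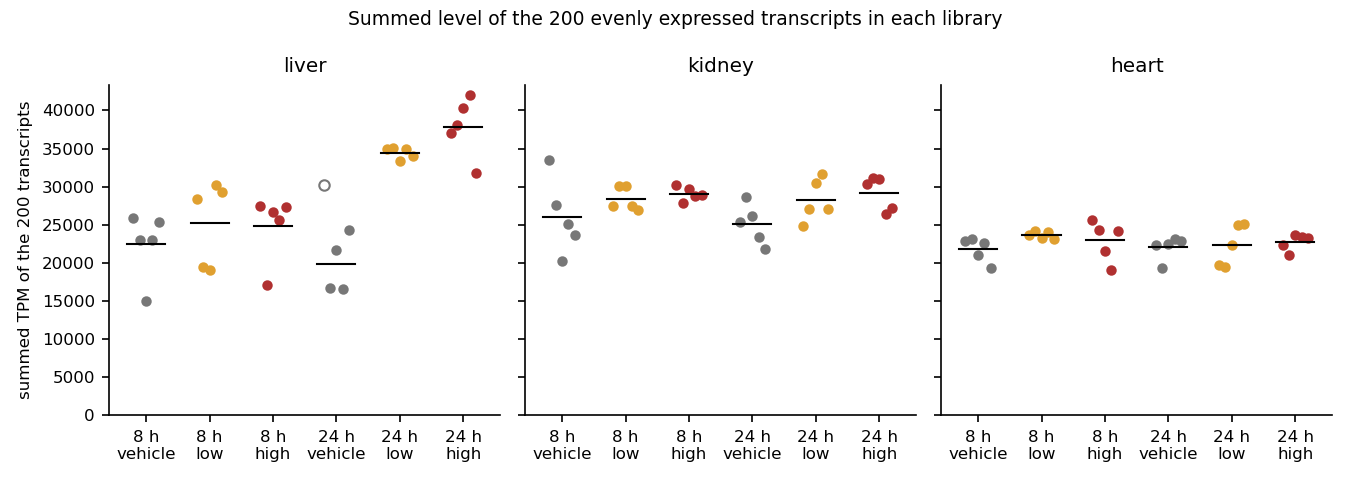
Summed TPM of the 200 transcripts in each library, by organ, time, and dose, where points are libraries, black lines are group means, and the open circle is MS-1, which is left out of its mean. The liver libraries of both treated groups at 24 h lie between 31822 and 42055, all above the vehicle libraries of the same time.

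Treated samples had no part in choosing the members. On the TPM scale, fewer of the members, all even in vehicle samples by the rule, were even among organs in treated samples. With deposited TPM, the ratio of the highest to the lowest organ mean was at most 1.5 for 129 of 200 members at 8 h and 85 at 24 h after the low dose, and for 97 at 8 h and 73 at 24 h after the high dose. These counts are to be read beside the 122 and 154 of 200 found between vehicle samples of the 2 times for lists chosen at 1 time. Most members stayed close to the limit. The ratio was at most 2 for 189, 174, 186, and 144 members in the same order, and its median was 1.39, 1.57, 1.51, and 1.65. Of the 1108 uneven transcripts, 91, 149, 76, and 138 came within 1.5. At 24 h the liver was the highest organ for 142 members after the low dose and 135 after the high dose, against 35 in vehicle samples of both times. At 8 h the kidney was the highest for 122 and 129, against 124. A total of 30 members were within 1.5 in all 4 treated conditions and 32 in none. After TMM over the samples of all organs the direction was the opposite. On that scale 111 members at 8 h and 54 at 24 h were within 1.5 after the low dose. After the high dose 115 and 67 were, against 39 in vehicle samples of both times.

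**Figure D2:**
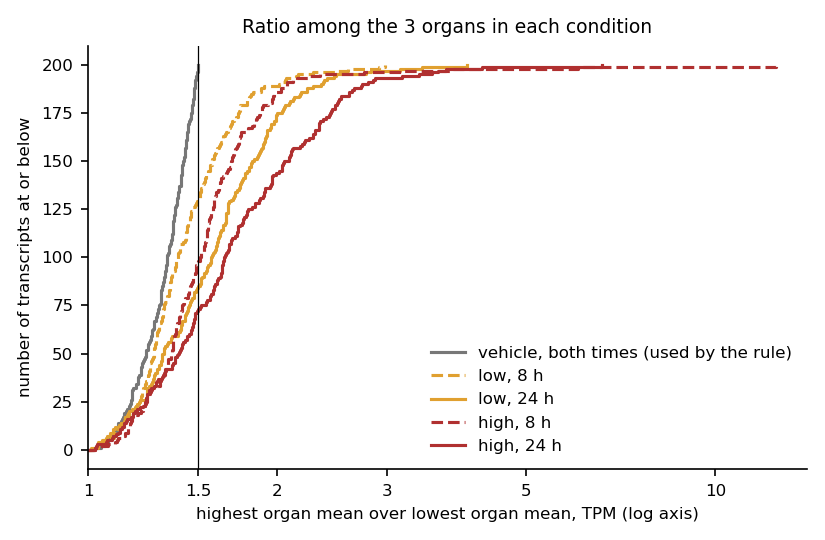
Number of the 200 transcripts at or below a given ratio of the highest to the lowest organ mean of TPM (log axis), for vehicle samples, which chose the members, and for each treated condition. At the limit of 1.5, marked by the vertical line, the curves stand at 129 and 85 after the low dose and at 97 and 73 after the high dose, at 8 and 24 h.

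In each organ and at each time, treated samples were then compared with vehicle samples, 5 against 5 and with 4 vehicle samples in the liver at 24 h. Both doses share their vehicle samples, which also chose the members. Members changed mostly in the liver. At 8 h, 11 members were called after the low dose (2 higher and 9 lower) and 18 after the high dose (4 higher and 14 lower). Of all transcripts tested, 9.88% were called after the low dose (5.78% higher and 4.1% lower) and 20.2% after the high dose (12.4% higher and 7.75% lower). At 24 h, 5 members were called after the low dose (1 higher and 4 lower, against 9.04%, 4.89%, and 4.15% of all transcripts), and 47 of 199 after the high dose (6 higher and 41 lower, against 26.8%, 13.2%, and 13.6%). The share of members called in high-dose livers at 24 h was thus 23.6%, near the background, and that of the uneven transcripts was 27.5%. After the high dose at 8 h it was 9% of the members and 7.98% of the uneven transcripts. With MS-1 among the vehicle samples, 0 members passed for the low dose at 24 h (background 1.91%) and 29 after the high dose (background 16.3%). For the low dose, 67 members then had an unadjusted p-value under 0.05. Without the limit on the fold change, 94 members (47.2%) were called after the high dose at 24 h. The background was 39.7%, and 58% of the uneven transcripts were called. Of the 18 members called after the high dose at 8 h, 11 (61.1%) were among the 47 called at 24 h (23.4% of these), 10 of them in the same direction. The shares for the uneven transcripts were 70.5% and 20.4%, and for all transcripts 55.4% and 40%. Both times have their own vehicle samples, and all of these took part in choosing the members. At 24 h the called members of the high-dose livers had log2 fold changes up to 1.10 and down to -3.51. The small count for the low dose at 24 h moved with single libraries, being 3 without any 1 of MS-19, MS-20, MS-21, MS-2, MS-5, MS-7, and MS-22 and 8 without MS-4.

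The 41 members that fell in high-dose livers at 24 h had a median log2 fold change of -1.27 there, which chose them. At 8 h their median was -0.57, and 39 of 41 were below 0, where the 200 members had a median of -0.19 and 58 were above 0. In the high-dose kidneys and hearts of 24 h their medians were -0.26 and 0.013, where the medians of all 200 members were -0.0044 and 0.019. Of the 41, 2 were called in a kidney comparison and 0 in a heart comparison. Over all transcripts tested the shares called there at least once were 4.31% and 0.761%, and over the uneven transcripts 2.17% and 0.812%. No such values are given for other transcripts that fell in the same livers, so these are no trait of the members.

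The direction in the liver depended on the scale. At 24 h with TMM the median log2 fold change of the members was -0.32 for the high and -0.076 for the low dose, beside 0.037 and 0.017 for all transcripts and -0.38 and -0.16 for the uneven ones. On log2(TPM + 1) with limma the same medians were 0.76 and 0.77, beside 0.33 and 0.29 for all transcripts, of which more passed the filter on that scale (28989 against 17137 for the high dose), and 0.70 and 0.67 for the uneven ones. There, 92 members (46%) were called higher and 4 (2%) lower after the high dose, where 23.7% of all transcripts were called higher and 1.55% lower. Of the uneven transcripts, 41.1% were called higher and 3.07% lower. For the low dose 69 members (34.5%) were called, all higher (background for higher calls 13.6%, uneven transcripts 32.1%). Scaling by library size alone gave 59 higher and 8 lower after the high dose (against 42.4% and 4.59% of all transcripts), with medians of 0.55 for the members, 0.48 for the uneven transcripts, and 0.90 for all. The shift between scales was thus also present in the uneven transcripts. At 8 h the medians of the members and of the uneven transcripts were -0.20 and -0.23 after the low dose and -0.19 and -0.17 after the high dose by TMM, and 0.12, 0.089, 0.0047, and 0.0052 in the same order by log2(TPM + 1).

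**Figure D3:**
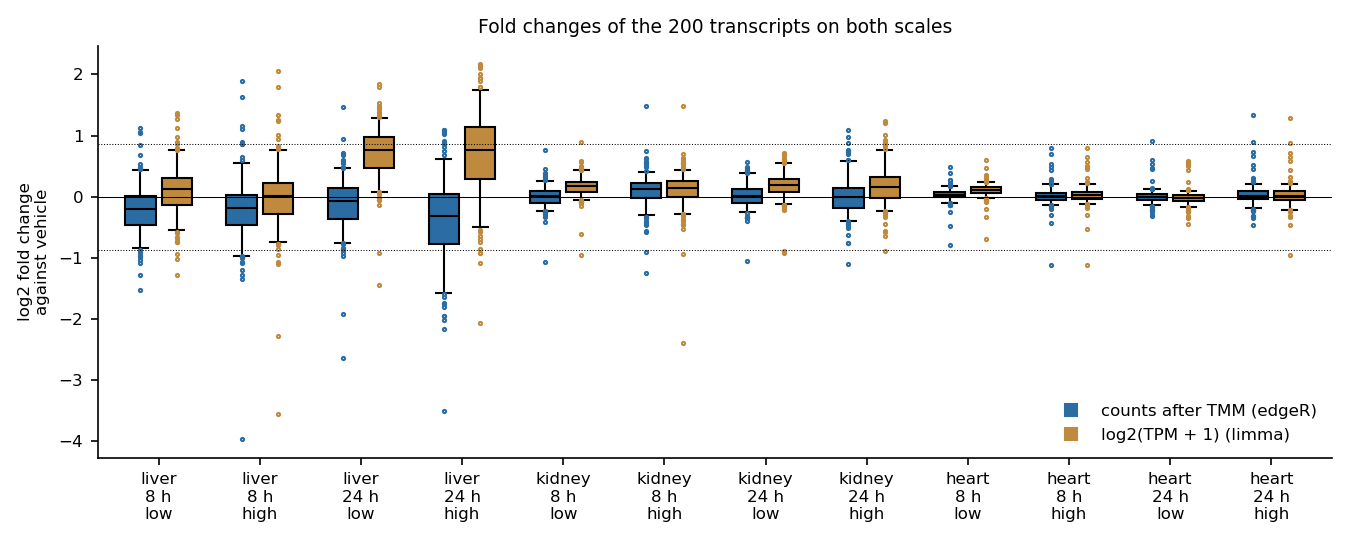
Log2 fold changes of the 200 transcripts against vehicle in 12 comparisons, from TMM-scaled counts (blue) and from log2(TPM + 1) (brown), with boxes from the lower to the upper quartile, a line at the median, whiskers at the 5th and 95th percentiles, points for transcripts beyond them, and dotted lines at the limits of 0.87. In the liver at 24 h the medians are -0.076 and -0.32 by the former and 0.77 and 0.76 by the latter, and in the heart both stay near 0.

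In the kidney, 0 members were called at 8 h and 0 at 24 h after the low dose, where 0.218% and 0.0593% of all transcripts were called. At an unadjusted p-value under 0.05 there were 14 and 26 members, and DESeq2 called 0 in both. After the high dose 1 member was called at 8 h and 2 at 24 h, against 1.49% and 4.19% of all transcripts. The median log2 fold change of the members was between -0.0044 and 0.12 in the 4 kidney comparisons by TMM, and between 0.14 and 0.19 by log2(TPM + 1).

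In the heart no member was called at 8 h after the low dose (0.0% of all transcripts) or the high dose (0.0171%), nor at 24 h after the low dose (0.0%). Unadjusted p-values under 0.05 numbered 10, 16, and 13, and DESeq2 called 0 in each. After the high dose at 24 h, 2 members were called against 0.922% of all transcripts, and both rose, by 1.34 and 0.90 on the log2 scale. Without MS-86, 1 was called. For the same group, the 5th and 95th percentiles of the members' log2 fold changes were -0.18 and 0.22, whereas in the liver they were -1.57 and 0.63. Over all 12 comparisons, 144 members were called in none, 39 in 1, and 17 in 2 or more. In these 3 classes were 68.2%, 17.1%, and 14.7% of the uneven transcripts and 68.9%, 15.6%, and 15.5% of all transcripts tested in at least 1 comparison, beside 72%, 19.5%, and 8.5% of the members. At least 1 liver comparison called 55 members, a kidney comparison 3, and a heart comparison 2, beside 31.1%, 2.17%, and 0.812% of the uneven transcripts and 29.2%, 4.31%, and 0.761% of all. Of the members, 1 was called outside the liver only.

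Most members could be bounded. In the order low and high dose at 8 h, then low and high dose at 24 h, the 95% interval of the fold change lay inside the limits of 0.60 (natural log) for 161, 148, 174, and 122 members in the liver. The shares were 45.4%, 37.3%, 49.7%, and 33.9% of all transcripts tested and 75%, 73%, 76.4%, and 50.5% of the uneven transcripts. In the kidney the numbers were 194, 183, 192, and 175 members, beside 64.6%, 58.9%, 65.6%, and 53.9% of all transcripts and 91.1%, 88.3%, 92.1%, and 85.4% of the uneven ones. In the heart they were 196, 193, 196, and 194 members, beside 78%, 77.6%, 77.6%, and 75.2% and 94.9%, 94.9%, 94.3%, and 92.6%. All transcripts include many of low counts, whose intervals are wide, so the uneven transcripts are the closer reference, though not matched in level or length. The heart bounded the most members and the high-dose livers of 24 h the fewest. The interval was inside in all 12 comparisons for 99 members and in 11 for 39, beside 42.2% and 21.1% of the uneven transcripts and 14.1% and 8.39% of all. It was inside in all 4 liver comparisons for 53% of the members, in all 4 kidney comparisons for 84.5%, and in all 4 heart comparisons for 95%. The uneven transcripts had 45.3%, 79.6%, and 91.2%, and all transcripts 16.8%, 38%, and 54.9%. On log2(TPM + 1) the liver at 24 h bounded 56 and 56 members for the low and the high dose, beside 30.6% and 26.4% of the uneven transcripts and 57% and 48.1% of all. A total of 3 members were inside in fewer than 6 comparisons, and the identifiers given next were chosen after their values were seen. ENSRNOT00000082103, of 61 bases and with as few as 7 counts in a sample, was inside in 3. ENSRNOT00000086293, which had 0 counts in a sample and did not pass the low-count filter for the high-dose livers of 24 h, was inside in none. The remaining one, with at least 178 counts in every sample, was also inside in none, and its estimated counts were not whole in any sample.

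**Figure D4:**
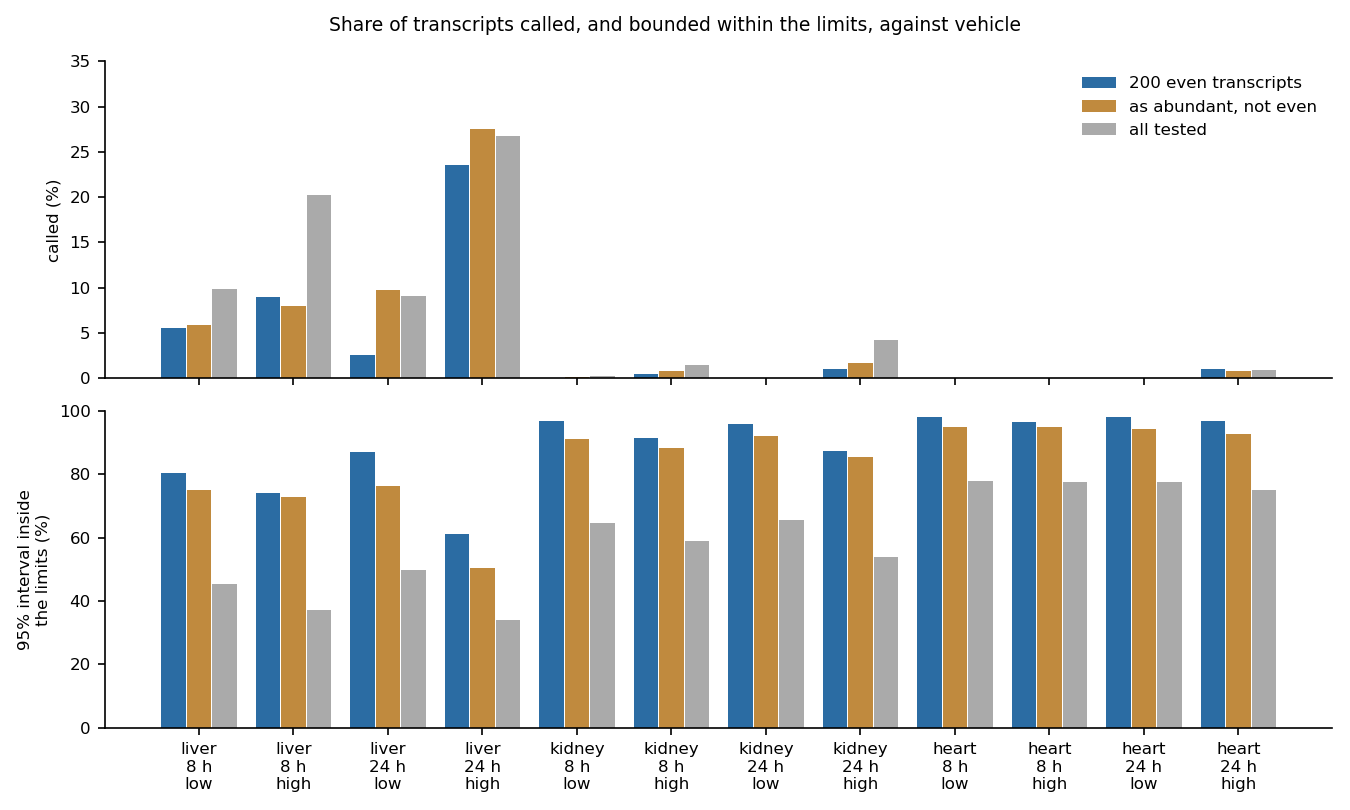
Share of the 200 even transcripts (blue), of the uneven transcripts (brown), and of all transcripts tested (grey) that were called (upper panel, in percent) and whose 95% interval lay inside the limits (lower panel, in percent) in each comparison with vehicle. The members stand at 23.6% called and 61.3% inside for the high-dose livers of 24 h, and at 0% called in 3 of the 4 heart comparisons.

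The member with the smallest largest change over the 12 comparisons was ENSRNOT00000080028, a transcript of 897 bases with vehicle means of 161 TPM for liver, 206 TPM for kidney, and 150.5 TPM for heart. In CPM after TMM (counts on the library-size scale that TMM sets within an organ), the vehicle livers at 24 h had 128, 137, 140.2, and 140.4. The livers after the high dose had 138, 139, 142, 143, and 157, so that the groups overlapped. The log2 fold change was 0.028 with a 95% interval from -0.16 to 0.21. The same livers in TPM had 116, 120.4, 151, and 183 with vehicle and 269, 281, 308, 309, and 362 after the high dose, without overlap, and the log2(TPM + 1) difference was 1.11. By TMM the level of this transcript was thus bounded close to that of vehicle, and on the TPM scale it was called higher. Its largest absolute log2 fold change was 0.092, and its coefficient of variation over the samples of an organ was 6.79% for liver, 8.41% for kidney, and 5.17% for heart. Its estimated count was not whole in any sample. Next in this order were ENSRNOT00000026932, ENSRNOT00000086622, ENSRNOT00000018173, and ENSRNOT00000088097, with largest absolute log2 fold changes between 0.15 and 0.18. Of these, ENSRNOT00000018173 had whole counts in every sample. These 5 were chosen by the same fits, so their small changes are a description. On log2(TPM + 1) the high-dose livers of 24 h gave log2 differences of 1.10, 1.22, 1.06, and 0.98 for these 4, and all were called.

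The 5 most abundant members were called in no comparison, and their intervals were inside the limits in all 12. For ENSRNOT00000001383 the log2 fold change was -0.0086 (95% interval -0.25 to 0.23) in the high-dose livers of 24 h by TMM. In TPM its vehicle livers had 1032, 1058, 1454, and 1615, and its high-dose livers 2221, 2583, 2774, 2874, and 3028, again without overlap. The largest absolute change among these 5 was 0.54, for ENSRNOT00000049535 in the same livers (SE 0.10, adjusted p = 0.0015), which is under the limit on the fold change.

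The largest fall was that of ENSRNOT00000036051, of 1191 bases, which was called in 5 of the 12 comparisons, the most of any member. In the liver at 8 h its CPM after TMM was 38.4, 43.9, 49.6, 50.1, and 52.8 with vehicle. It was 7.89, 11.4, 13.3, 22.2, and 26.8 after the low dose and 1.18, 1.19, 1.47, 5.07, and 5.85 after the high dose. All treated livers were below all vehicle livers. The log2 fold change was -1.52 (SE 0.28, adjusted p = 0.00208) for the low dose and -3.96 (SE 0.45, adjusted p = 5.19e-05) for the high dose. At 24 h the vehicle livers had 11.4, 42.2, 50.8, and 53.4, the low-dose livers 5.67, 7.91, 8.62, 14.4, and 15.8, and the high-dose livers 2.30, 2.41, 3.42, 4.96, and 5.04. The lowest vehicle value, from MS-4, lay within the low-dose group and above the high-dose group. Fold changes were -1.92 (SE 0.44, adjusted p = 0.00839) and -3.51 (SE 0.44, adjusted p = 0.000116). In the kidney at 24 h, 20.2, 23.4, 24.3, 26.5, and 30.4 CPM after the high dose stood against 44.1, 46.1, 53.9, 57.8, and 61.7 with vehicle, a log2 fold change of -1.10 (SE 0.13, adjusted p = 0.000289). The fold changes in the 4 heart comparisons were between -0.21 and 0.10 and none was called. Its estimated counts were not whole in any sample. ENSRNOT00000025559, with whole counts in every sample, fell in the high-dose livers of 24 h, from 263, 349, 372, and 445 CPM with vehicle to 57.9, 65.9, 85.5, 90.2, and 112 CPM, with no overlap and a log2 fold change of -2.17 (SE 0.21, adjusted p = 2.97e-05). In the liver at 8 h its value was -0.47 (SE 0.19, adjusted p = 0.0606), which did not pass the threshold.

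The largest rise was that of ENSRNOT00000012537, which changed in opposite directions at the 2 times. In the liver at 8 h its CPM after TMM was 95.9, 108.1, 127, 135, and 145 with vehicle, 232, 238, 255, 264, and 286 after the low dose, and 391, 425, 441, 442, and 518 after the high dose. The 3 groups did not overlap. The log2 fold change was 1.07 (SE 0.12, adjusted p = 0.000146) for the low dose and 1.89 (SE 0.13, adjusted p = 2.99e-06) for the high dose. At 24 h the order was turned, with 166, 171, 190.2, and 209 with vehicle, 75.8, 102.2, 115, 116, and 133 after the low dose, and 51.6, 52.3, 55.2, 59.2, and 67.5 after the high dose, and the high dose gave -1.74 (SE 0.11, adjusted p = 5.43e-06). On log2(TPM + 1) that value was -0.64 and was not called. The interaction of high dose and time was -3.53 on the log2 scale (24 h minus 8 h, adjusted p = 9.86e-10 by edgeR). In the kidney at 8 h it rose after the high dose, from 84.2, 91.9, 114, 118, and 156 to 254, 292, 298, 356, and 373 CPM, by 1.49 (SE 0.17, adjusted p = 0.000532), and at 24 h its fold change there was -0.24 and not called. Its estimated counts were not whole in 98.9% of samples. ENSRNOT00000083677 rose in high-dose livers of 8 h, from 81.9, 123, 126, 131, and 149.8 to 276, 288, 411, 421, and 475 CPM, by 1.64 (SE 0.20, adjusted p = 8.73e-05). In the kidney it rose at 24 h, from 77.1, 77.4, 96.9, 101.4, and 107.9 to 138, 204, 208, 221, and 228 CPM, by 1.09 (SE 0.16, adjusted p = 0.00109). In both, every treated library was above every vehicle library. It was called neither in the other liver comparisons nor in the heart.

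**Figure D5:**
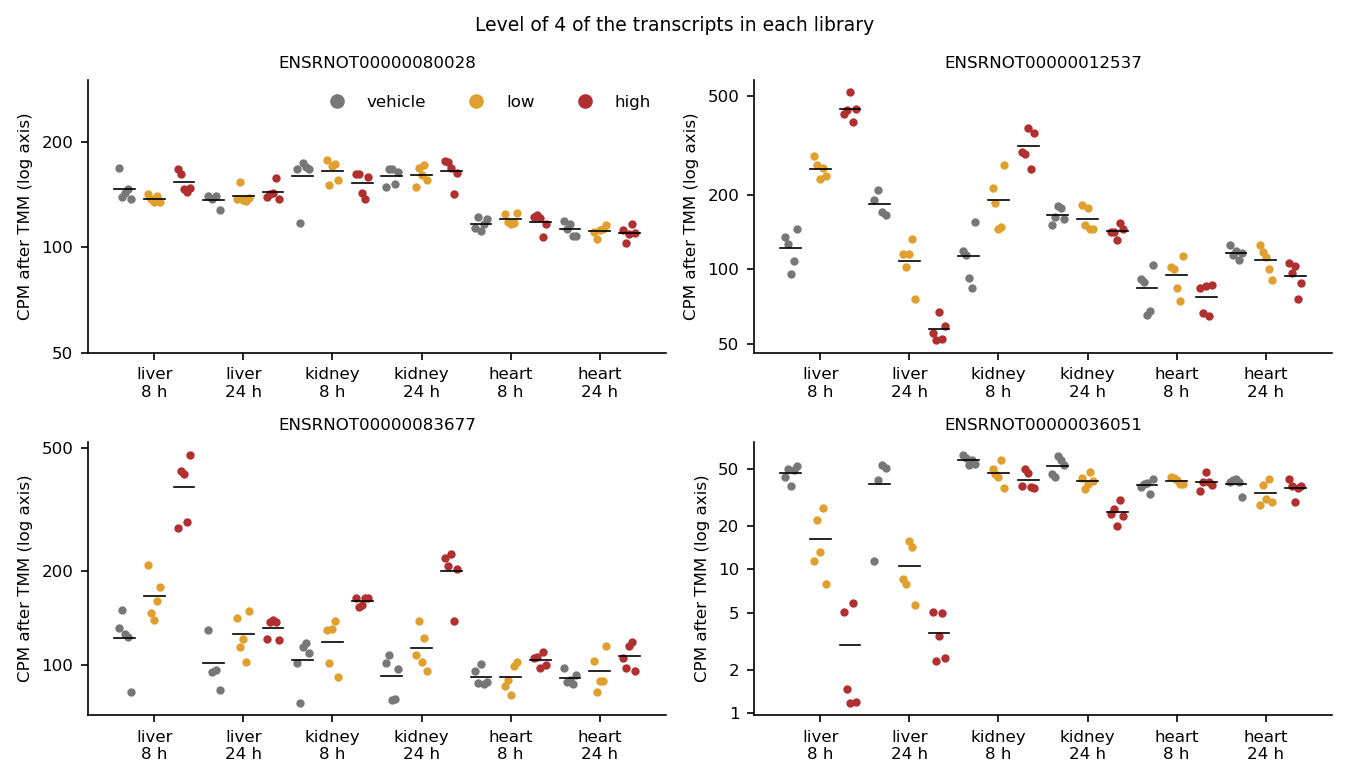
CPM after TMM (log axes) of 4 transcripts in each library by organ, time, and dose, with points for libraries (MS-1 left out) and lines for group means. ENSRNOT00000080028 stays between 102.8 and 178 CPM, ENSRNOT00000012537 and ENSRNOT00000083677 rise in the liver at 8 h, and ENSRNOT00000036051 falls there to between 1.18 and 5.85 CPM after the high dose, and levels are comparable within an organ only.

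The high-dose effect was also compared between times and among organs, each as an interaction term in edgeR, called at the same adjusted p-value with no limit on size. Between 24 and 8 h it differed for 25 members in the liver, where 10.2% of all transcripts and 15% of the uneven ones were called. It differed for 3 members in the kidney (background 0.867%, and 5 members without MS-106) and for 0 in the heart (background 0.00539%). In the heart 19 members had an unadjusted p-value under 0.05, and DESeq2 called 1 (background 0.107%). With MS-1, 16 members were called in the liver (background 7.98%). Among the 3 organs the high-dose effect differed for 60 members at 8 h (background 21.4%, uneven transcripts 24.4%) and for 77 at 24 h (background 24.0%, uneven transcripts 39.9%). These 2 counts are a description, since the vehicle samples in the contrast chose the members for a small difference among organs. Without TMM these numbers were 37 and 124, and with MS-1 the second was 51, where the backgrounds were 20.2%, 42.7%, and 15.2%. The uneven transcripts had 19.1%, 59.6%, and 29.3% in the same order. The count of 60 at 8 h, which is 30% of the members, was 51.5% without the kidney vehicle library MS-100 (background 29.7%, uneven transcripts 50.4%).

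Over all samples of an organ, doses and times together, the coefficient of variation of the members in deposited TPM had a median of 30.5% for liver (29 samples), 15.9% for kidney (30 samples), and 10.8% for heart (30 samples). In CPM after TMM it was 20.04%, 16.5%, and 8.16%. The uneven transcripts had 21.3%, 17.5%, and 8.71% on the latter scale, close to the members. In CPM after TMM, 100 members were under 20% for liver, 140 for kidney, and 189 for heart. Within the vehicle groups the medians on this scale were 13.6%, 15.3%, and 6.44%, so the order of the organs was not the same as over all samples, where the liver varied the most.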

How the data were processed

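Libraries from 90 liver, kidney, and heart samples were poly-A selected, and the authors pseudo-aligned 75-bp read pairs with kallisto 0.42.2 to the Ensembl Rnor 6.0 transcriptome. Per the file headers, each deposited file gives an estimated count and a TPM value for every target, of which 40071 are transcripts and 25095 are genomic intervals. Intervals were used in totals but not among the members. Library totals were 16332800 to 36303200. The members and lists were chosen with earlier results of these data known.

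Estimated counts were rounded and tested in edgeR 4.0.16 (filterByExpr, TMM within an organ and time for 2-group fits, quasi-likelihood test, Benjamini-Hochberg adjustment over all transcripts tested) with R 4.3.3. A call needed an adjusted p of at most 0.01 and a natural-log fold change of 0.60 or more in size. DESeq2 1.42.0, limma 3.58.1 on TPM with a pseudocount of 1 or 0.1 (log2 scale), other filters and scalings, and leaving out each replicate were alternatives. Scripts were tested on simulated data. MS-1 was left out as a duplicate of MS-9. P-values set a difference between groups against the spread between these samples. Named were the 5 most abundant and the 5 least changed members, the 2 largest called rises and falls after the high dose, and those at the limits of the rule. Gene lists and cell type markers could not be applied to transcript identifiers.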

Additional observations from a re-analysis of the deposited data

Results flagged for a closer look

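The summed TPM of the members had a library far from the others of its group in 3 of the 42 groups of values examined, of which chance marks about 1 in 20. It was 19359 in MS-64 of the vehicle hearts of 24 h, 17066.5 in MS-14 of the high-dose livers of 8 h, and 14922 in MS-16 of the vehicle livers of 8 h, each the lowest of its group. The last 2 are among the liver libraries with more than 20% of TPM on targets under 200 bases.

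The high-dose effect differed between 24 and 8 h, by the interaction in edgeR, for 25 members in the liver (12.5%) and 3 in the kidney (1.5%), where 10.2% and 0.867% of all transcripts and 15% and 0.542% of the uneven transcripts were called. It differed among the 3 organs for 60 members at 8 h (30%) and 77 at 24 h (38.5%), where 21.4% and 24.0% of all transcripts and 24.4% and 39.9% of the uneven ones were called. The counts among organs are a description, because the vehicle samples in that contrast chose the members.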

How the results depend on the processing

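Counts of members held within 1.5 times of the reported value in 261 of 333 recomputations other than those leaving out 1 replicate, and moved further in 72. Liver counts below follow the order low and high dose at 8 h, then low and high dose at 24 h. With no limit on the fold change they were 45 (6 higher and 39 lower), 60 (9 higher and 51 lower), 47 (9 higher and 38 lower), and 94 (16 higher and 78 lower) (background 21%, 32.8%, 17.1%, and 39.7%), and the high dose gave 2 in the kidney at 8 h, 11 in the kidney at 24 h, and 6 for hearts of 24 h (background 2.21%, 6.66%, and 2.58%). Of the uneven transcripts, 24.3%, 27.9%, 32.7%, and 58% were then called in the liver, and 1.45%, 5.06%, and 3.43% in those of kidney and heart. Library size without TMM, chosen after seeing the data, gave 8 (6 higher and 2 lower), 10 (5 higher and 5 lower), 20 (19 higher and 1 lower), and 67 (59 higher and 8 lower) in the liver (background 15.2%, 20.5%, 20.8%, and 47%), 4 in the high-dose kidneys of 24 h (background 4.53%), and 18.5% and 62% of members for the comparison among organs at 8 and 24 h. limma on log2(TPM + 1) gave 3 (2 higher and 1 lower), 7 (4 higher and 3 lower), 69 (69 higher and 0 lower), and 96 (92 higher and 4 lower) (background 3.16%, 7.28%, 13.8%, and 25.2%), 4 in the high-dose kidneys of 24 h (background 1.91%), and at 24 h 56 and 56 members inside the limits. In the liver, 2.08%, 5.78%, 32.4%, and 44.1% of the uneven transcripts were called on this scale. limma on log2(TPM + 0.1) gave 2 (2 higher and 0 lower), 7 (4 higher and 3 lower), 73 (73 higher and 0 lower), and 97 (92 higher and 5 lower) (background 4.4%, 10%, 22%, and 32.9%), with 49 and 48 inside (background 22.8% and 17.9%). Of the uneven transcripts it called 1.81%, 5.69%, 32.7%, and 44.4%. With MS-1 the liver at 24 h gave 0 (0 higher and 0 lower) and 29 (3 higher and 26 lower), its interaction of high dose and time 16, and the comparison among organs at 24 h 25.5%. With the percent of counts on genomic intervals as a covariate, also chosen after seeing the data, the low-dose livers of 24 h gave 3 (0 higher, background 3.76%). DESeq2 called 6 members for the interaction in kidneys (background 1.52%) and 1 in hearts. At a ratio limit of 2, 174, 186, and 144 members were even for the low dose at 24 h and the high dose at 8 and 24 h, and after TMM over all samples 54 were even for the low dose at 24 h. Of the 200 members, 55 were also chosen at a stricter limit on the ratio, 70 at 2, and 23 after TMM over all samples. With MS-1 among the vehicle samples 155 were also chosen, and with medians in place of means 145. The median coefficient of variation in the liver was 20.04% after TMM.

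The log2 fold changes in high-dose livers of 24 h of ENSRNOT00000001383, ENSRNOT00000022897, ENSRNOT00000046519, ENSRNOT00000083951, and ENSRNOT00000088097, all slightly below 0 by TMM, turned to 0.85, 0.80, 0.81, 0.68, and 0.77 by library size, 1.08, 1.04, 1.05, 0.91, and 0.98 by log2(TPM + 1), and 1.08, 1.04, 1.05, 0.91, and 1.004 by log2(TPM + 0.1). With MS-1 these values, without that of ENSRNOT00000083951, were 0.067, 0.046, 0.062, and 0.0045, and with genomic intervals in the fit the first 3 were 0.062, 0.017, and 0.024. ENSRNOT00000001383 was also above 0 with no low-count filter (0.023) and with all dose groups in 1 fit (0.015), and ENSRNOT00000026932 was -0.011 with the covariate. The causes of these changes were not tested. Leaving out 1 replicate at a time, counts of called members were 3 to 8 (2 to 7 lower) in the low-dose livers of 24 h, 1 to 2 in the high-dose hearts of 24 h, and 2 to 5 for the interaction in the kidney, and 27% to 51.5% of members for the comparison among organs at 8 h. Over the same refits the log2 fold change was -0.049 to 0.033 for ENSRNOT00000001383, -0.0049 to 0.049 for ENSRNOT00000080028, -0.061 to 0.12 for ENSRNOT00000026932, and -0.083 to 0.11 for ENSRNOT00000018173. Dose groups hold different rats and were not paired. For the comparison among organs, library numbers that recur 30 apart were taken as a replicate block, chosen after seeing the data. It called 29.5% of members at 8 h (background 16.6%) and 35.5% at 24 h (background 21.6%), and the same samples without the block gave 35% and 40% (background 20.8% and 26.7%). The uneven transcripts had 25.1% and 43.1% with the block and 34.4% and 48.5% without it. Of 68 pairs of samples with such numbers, 48 had a correlation of their deviations from the group means over 0.1 (median 0.30). Of 372 other pairs, 132 did (median -0.046). Deviations were thus more alike in pairs with such numbers. No label ties the organs to rats, and the other fits among organs treated them as unpaired, without this likeness taken into account. The 4 vehicle livers of 24 h, and for short or read-sharing transcripts the counts, limit the precision.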

Other observations

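Of the 30 members even among organs in all 4 treated conditions, 18 also had the 95% interval of the fold change inside the limits in all 12 comparisons with vehicle by TMM. Among all 200 members, 99 (49.5%) did, and whether the shares differ was not tested. These counts describe the samples from which they were taken.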
